A study of Mus musculus with 5 samples.

Results

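The BCL2 family survival genes are the relatives of *Bcl2*, whose protein is a clinical marker of synovial sarcoma (SyS). The 10 members described here were chosen by gene symbol and make up 10 of the 32286 features counted. They are the anti-apoptotic genes *Bcl2*, *Bcl2l1*, *Bcl2l2* and *Mcl1*, the pore-forming effectors *Bax* and *Bak1*, and the BH3-only genes *Bcl2l11*, *Pmaip1*, *Bbc3* and *Bid*. All 10 passed the filter on low counts in each of the 5 comparisons below. Single-cell RNA-seq was performed on 5 SyS tumors from *hSS2* mice. All of them express human *SS18::SSX2*, the fusion oncogene of this cancer, from *Rosa26* after TATCre protein was injected into the limb, and tumors were taken at morbidity. The labels gave 2 tumors as BP (biphasic, with glands beside spindle cells), and 1 each as MP (monophasic), MP+BP and PD+MP (PD, poorly differentiated). Every library is a tumor, the labels name no other allele or agent and no ages, and no normal tissue was set beside them.

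Cells commit to apoptosis through the mitochondrion when BAX or BAK1 opens pores in its outer membrane. BCL2, BCL-XL (*Bcl2l1*), BCL-W (*Bcl2l2*) and MCL1 hold these effectors in check. The BH3-only proteins BIM (*Bcl2l11*), NOXA (*Pmaip1*), PUMA (*Bbc3*) and BID answer stress by binding the anti-apoptotic proteins or the effectors. Lymphocytes are known to rely on BCL2, and neutrophils on MCL1. The values below are RNA, and much of the family's control lies in the proteins.

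The tumors gave 51670 called cells, of which 39559 (76.6%) were kept, with 8931 to 11565 called cells and 89996321 to 118649103 UMIs (unique molecular identifiers, each counting 1 captured RNA molecule) per tumor. The 30 clusters were named from marker genes where these allowed it, and 14 of them, with 24879 cells (62.9%), were SyS-like. A further 5854 cells (14.8%) carried SyS markers but stayed unnamed, because of low UMI counts or leading genes of another class. Of these, 1750 were in cluster 9, with 10 SyS markers and a median of 8411 UMIs per cell. It was set aside because the T cell marker *Trac* was among its leading genes, and it held 1168 cells of MP+BP and 453 of BP replicate 1. The summed level of 14 SyS markers was 3064 to 4266 CPM (UMIs of a gene per 1e6 UMIs of the sum) in SyS-like cells and 106 to 239 CPM in stromal, endothelial-like and macrophage-like cells. The 10 endothelial markers summed to 7326 to 8276 CPM in endothelial-like cells and to 131 to 270.0 CPM in SyS-like cells, and the 10 macrophage markers to 20.2 to 26.3 CPM in SyS-like cells. These markers named the clusters and were not kept out of the clustering, so their sums describe the classes and are no separate check. Stromal cells are pericyte-like and fibroblast-like cells together. They were mostly pericyte-like, except in PD+MP, where 122 of 160 were fibroblast-like. Any 2 libraries shared 15 to 33 cell barcodes, at most 0.302% of the smaller one. PD+MP stood apart in its SyS-like cells, with 28.7% of genes above and 35.4% below the range of the other 4 tumors.

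*Bcl2* (ENSMUSG00000057329) spans 176.1 kb of chromosome 1 on the minus strand (GRCm38, chr1:106538178-106714274). *Bcl2l11* (ENSMUSG00000027381) covers 36.5 kb of chromosome 2 on the plus strand (chr2:128126038-128162547). Their promoters are shown because *Bcl2* is the clinical marker and *Bcl2l11* was the member that set SyS-like cells furthest above stromal cells. The 250 bases before a start site of each gene are RefSeq sequence of GRCm38.p6, with each CpG in capitals. They lie at chr1:106714291-106714540 on the minus strand and chr2:128125788-128126037 on the plus strand.
Bcl2: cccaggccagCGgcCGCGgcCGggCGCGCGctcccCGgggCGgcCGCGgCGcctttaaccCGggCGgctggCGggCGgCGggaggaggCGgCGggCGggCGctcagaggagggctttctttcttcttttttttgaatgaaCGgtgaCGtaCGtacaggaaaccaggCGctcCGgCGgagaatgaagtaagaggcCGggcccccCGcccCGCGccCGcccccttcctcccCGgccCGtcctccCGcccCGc
Bcl2l11: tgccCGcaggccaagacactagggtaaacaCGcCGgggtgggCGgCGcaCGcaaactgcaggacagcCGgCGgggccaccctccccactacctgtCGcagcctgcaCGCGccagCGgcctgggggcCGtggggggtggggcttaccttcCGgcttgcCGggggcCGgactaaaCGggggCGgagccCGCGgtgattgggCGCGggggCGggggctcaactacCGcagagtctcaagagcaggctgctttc
The *Bcl2* window held 36 CpGs and the *Bcl2l11* window 24, against a median of 6 over 32851 windows of this length. Fewer CpGs than in *Bcl2* were found in 97.4% of all windows, and fewer than in *Bcl2l11* in 88.0%. The forkhead core TGTTTAC, read on both strands, occurred 1 time in this *Bcl2l11* window, 0 times in *Bcl2* and in 3.17% of all windows. A consensus p53 half-site was found in neither of the windows shown and in 7.13% of all windows. Another *Bcl2l11* window (chr2:128127325-128127574, not shown) held 30 CpGs, with fewer in 94.1% of all windows, and 0 copies of TGTTTAC. That core also occurred 1 time in a *Bbc3* window, and a *Bax* window held 1 p53 half-site. Of the 10 members, 9 matched the promoter table.

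*Bcl2* RNA was not highest in the tumor cells. In SyS-like cells it was measured at 54.8 CPM (BP replicate 1), 40.9 CPM (BP replicate 2), 43.9 CPM (MP), 44.0 CPM (MP+BP) and 39.6 CPM (PD+MP), with a mean of 44.6 ± 6.0 CPM (SD, n = 5). These values rest on 2576 to 3691 *Bcl2* UMIs per tumor, so counting error is small (95% Poisson interval 52.8 to 56.8 CPM in BP replicate 1). BP replicate 1 was the highest, and the other 4 tumors lay close together. T/NK-like cells held most, at 217.8, 217.0, 103.3, 180.6 and 433.3 CPM in the same order of tumors (mean 230.4 ± 122.6 CPM, n = 5), from only 34 to 74 cells per tumor. Endothelial-like cells followed with 121.0, 122.3, 76.5, 82.2 and 108.1 CPM (mean 102.0 ± 21.5 CPM). T/NK-like values exceeded endothelial-like values and endothelial-like values exceeded SyS-like values within each of the 5 tumors. Stromal cells had 25.8, 61.5, 26.4, 42.1 and 33.3 CPM, which overlap the SyS-like range. Below them came mast cell-like (29.0 CPM, n = 2), macrophage-like (28.8 ± 5.5 CPM, n = 5), neutrophil-like (20.6 ± 12.8 CPM, n = 5) and dendritic cell-like cells (10.3 ± 2.2 CPM, n = 4). Neighbors from stromal to neutrophil-like cells overlapped in their ranges.

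**Figure D1:**
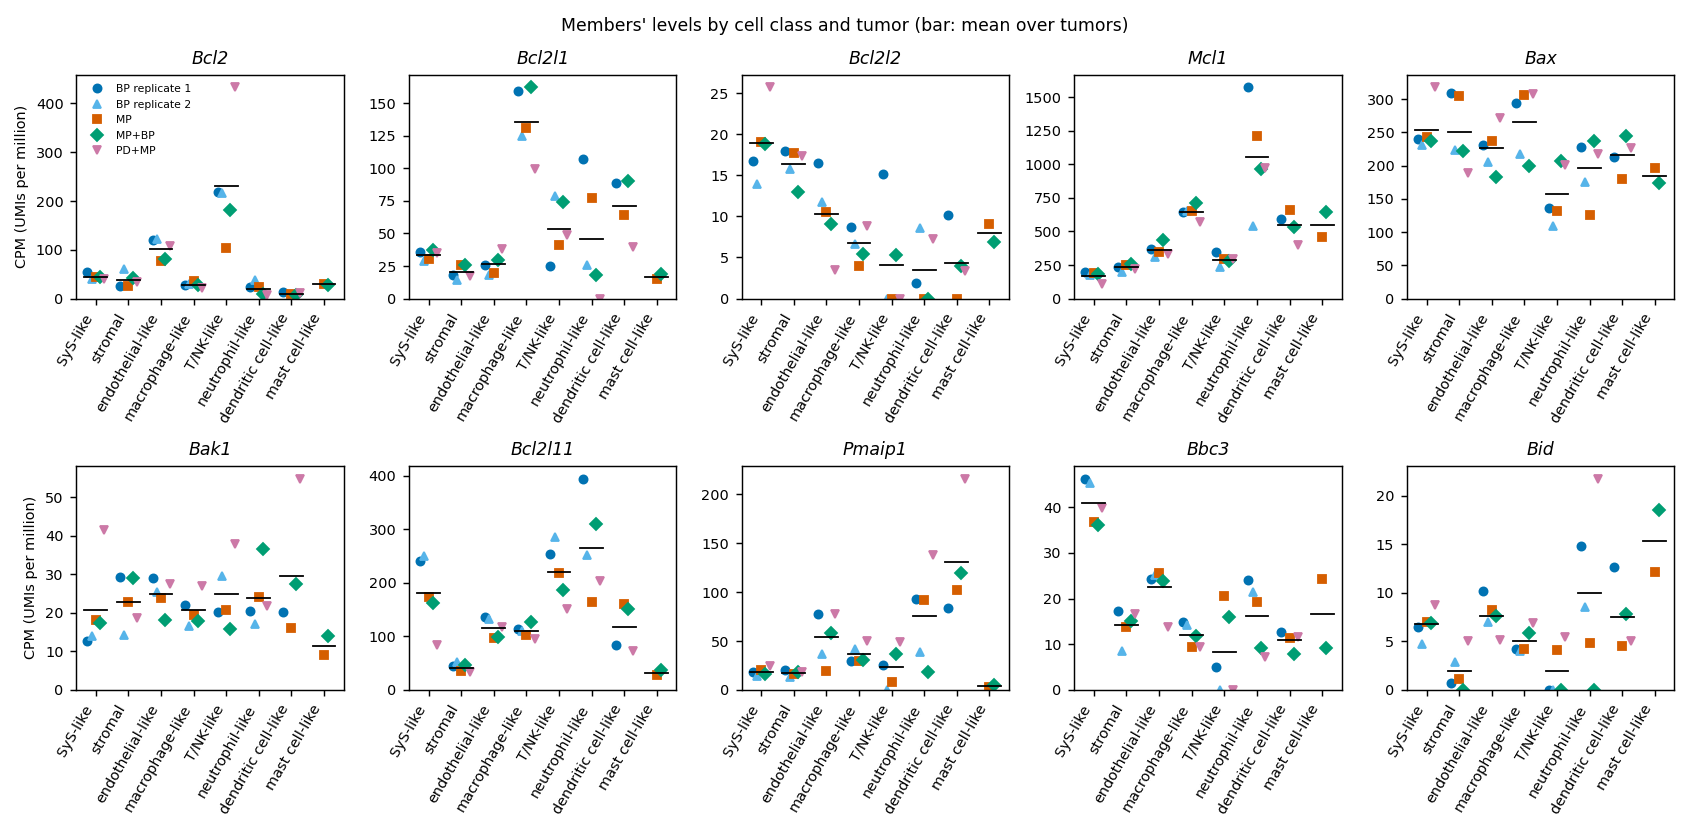
CPM of each member (y axis, from 0, a scale of its own in each panel) by cell class (x axis), 1 symbol per tumor, with a bar at the mean over tumors. *Bcl2* peaks in T/NK-like cells at 103.3 to 433.3 CPM, *Mcl1* in neutrophil-like cells and *Bbc3* in SyS-like cells at 36.0 to 46.3 CPM.

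The order depends on whether RNA is counted as CPM or per cell, since SyS-like cells were larger in UMIs (median 8678 to 12052 per tumor) than stromal (2915 to 7921) or endothelial-like cells (4008 to 5118). Per 100 cells, *Bcl2* gave 65.0 ± 19.4 UMIs in SyS-like cells, 74.2 ± 15.4 in endothelial-like cells, 67.7 ± 35.9 in T/NK-like cells and 19.1 ± 6.9 in stromal cells (SD, n = 5 each). By this measure SyS-like cells held 1.63 to 6.87 times the *Bcl2* UMIs of stromal cells, more in 5 of 5 tumors, and 0.602 to 1.12 times those of endothelial-like cells, more in 2 of 5. How much of this follows cell size and how much capture cannot be told apart. The share of SyS-like cells with a *Bcl2* UMI was 26.9% to 43.6%, and 9.24% to 12.8% after each cell was thinned to 3000 UMIs. At the same thinned depth the share was 16.9% to 27.5% in endothelial-like, 6.15% to 16.8% in stromal and 1.67% to 4.17% in dendritic cell-like cells (median UMI counts 5576 to 7471), the class with the lowest level. The SyS-like share thus lay above the whole dendritic cell-like range and below the whole endothelial-like range. In macrophage-like cells the share was 5.72% to 11.4%, which overlaps the SyS-like range. It was above the SyS-like share in MP (11.4% and 10.8%) and below it in each other tumor.

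The anti-apoptotic genes of SyS-like cells were led by *Mcl1* at 197.1, 173.3, 193.4, 180.6 and 111.2 CPM (BP replicates 1 and 2, MP, MP+BP, PD+MP). PD+MP was the lowest, well under the other 4. *Bcl2l1* ranged from 29.1 to 37.0 CPM and *Bcl2l2* from 14.0 to 25.7 CPM. CPM here counts UMIs of 3′ libraries, 1 per captured molecule, and is not divided by gene length. Whether intron reads were counted was not stated, and these would add most to a long gene such as *Bcl2*. *Mcl1* made up 63.3% ± 6.2 (SD, n = 5) of the UMIs of the 4 anti-apoptotic genes in SyS-like cells. *Bcl2* made up 16.7% ± 1.5, *Bcl2l1* 12.7% ± 2.4 and *Bcl2l2* 7.29% ± 2.78. The *Bcl2* share was 18.02% and 15.9% for the BP tumors, 15.3% for MP, 15.7% for MP+BP and 18.7% for PD+MP, so labels with and without BP overlapped. *Bcl2* took 20.7% ± 4.8 of these UMIs in endothelial-like cells, 12.4% ± 5.1 in stromal cells, 3.52% ± 0.60 in macrophage-like cells and 37.9% ± 11.9 in T/NK-like cells (n = 5 each). Within tumors the SyS-like share exceeded the macrophage-like one by 13.2 ± 1.9 percentage points, in 5 of 5 tumors. It exceeded the stromal share by 4.35 ± 5.69 points, in 4 of 5, and fell short of the endothelial-like share by a mean difference of -3.97 ± 4.38 points, in 4 of 5. Two-sided exact sign-flip permutation tests gave p = 0.0625, 0.1875 and 0.125 (each 0.1875 after adjustment over the 3 classes), and 0.0625 is the smallest p that 5 pairs allow.

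**Figure D2:**
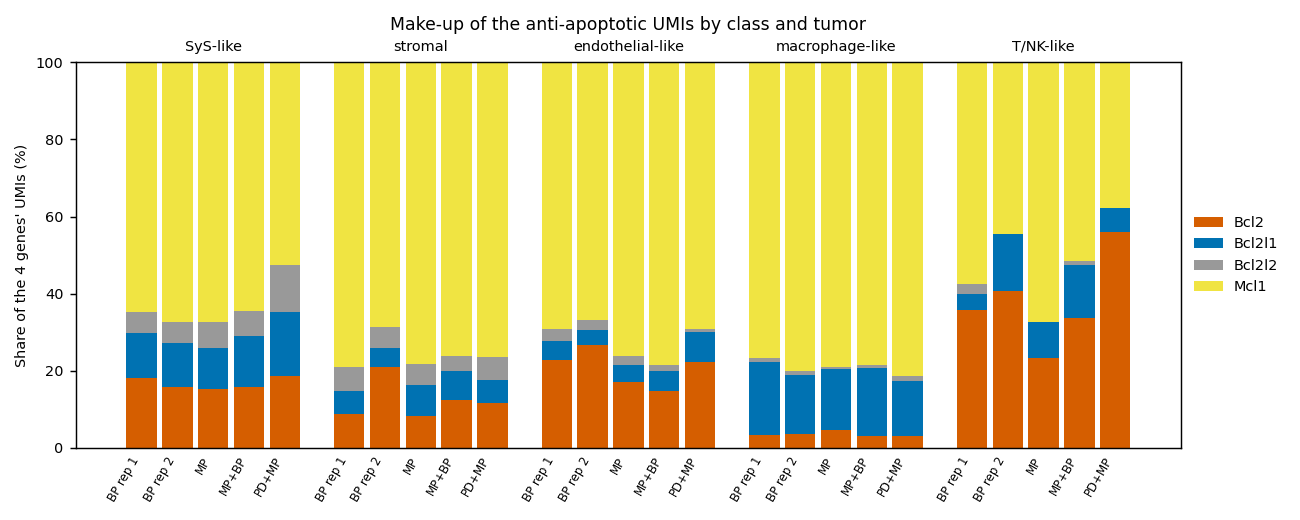
Stacked bars give the share (y axis, percent) of *Bcl2*, *Bcl2l1*, *Bcl2l2* and *Mcl1* in their summed UMIs, 1 bar per tumor, grouped by cell class (x axis). The *Bcl2* share stays at 15.3% to 18.7% in SyS-like cells and under 5% in macrophage-like cells.

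SyS-like sums were then set against each other class in the same 5 tumors, with the tumor as a block. The sign of each log2 value is set by the scaling between sums (TMM), not by the typical gene. Over genes that did not shape the clusters, the median log2 change was 0.22 against stromal and 0.22 against endothelial-like cells. Against macrophage-like cells it was 0.30. A positive value below the median thus lies under the typical gene. Without TMM scaling these medians were 0.48, 0.45 and 0.88, a shift that bears on every value below.

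Against stromal cells, the BH3-only genes *Bcl2l11* and *Bbc3* were higher in SyS-like cells. *Bcl2l11*, which encodes the broad BCL2 antagonist BIM, had 240.7, 249.3, 172.9, 162.5 and 83.4 CPM in SyS-like and 43.7, 51.5, 34.7, 46.4 and 32.5 CPM in stromal cells. The groups did not overlap, and PD+MP had the lowest value in both. The log2 fold change was 1.79 ± 0.21 (SE; edgeR quasi-likelihood adjusted p = 0.00029). *Bbc3* (PUMA, a p53 target) stood at 36.0 to 46.3 CPM against 8.58 to 17.2 CPM, a log2 fold change of 1.24 ± 0.23 (adjusted p = 0.00347). *Bid* was also higher by 1.74 ± 0.57 (adjusted p = 0.0459), but stromal cells held 0 to 7 *Bid* UMIs per tumor. Its call was lost without any 1 of BP replicate 1, BP replicate 2, MP or MP+BP (adjusted p 0.0625 to 0.148) and with doublets kept (log2 0.88, adjusted p = 0.118). The BH3-only gene *Pmaip1* was at -0.13 ± 0.20 (adjusted p = 0.649). *Mcl1* was the member called lower, by -0.72 ± 0.17 (adjusted p = 0.0132), at 111.2 to 197.1 CPM against 201.6 to 260.2 CPM, and without MP+BP its adjusted p was 0.0515. Counted as UMIs per cell, *Mcl1* was instead higher in SyS-like cells in 4 of 5 tumors, at 0.689 to 2.905 times the stromal value. *Bcl2* itself differed by 0.06 ± 0.23 (95% interval -0.47 to 0.58, adjusted p = 0.882), so a difference within that interval could not be resolved. *Bcl2l1* was not called either, though its CPM was higher in SyS-like cells in 5 of 5 tumors, at 1.19 to 2.03 times the stromal value. In all, 3 of 10 members were called higher and 1 lower, where 17.3% and 9.27% of the 15421 tested genes outside the clustering features were. The members' median log2 change was -0.01. Fibroblast markers summed to 130.8 to 1011 CPM in SyS-like and 3877 to 47240 CPM in stromal cells, and their part in these differences was not tested. With pericyte-like cells alone no call among the members changed, and *Bid* was at 2.98 (adjusted p = 0.00403).

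Against endothelial-like cells *Bcl2* was clearly lower. The log2 fold change was -1.39 ± 0.14 (adjusted p = 3.07e-05), and each tumor's SyS-like value lay below its endothelial-like one. *Mcl1* was lower by -1.30 ± 0.14 (adjusted p = 5.52e-05), at 307.2 to 439.8 CPM in endothelial-like cells. In UMIs per cell, *Mcl1* was higher in SyS-like cells in 3 of 5 tumors, at 0.546 to 1.18 times the endothelial-like value. *Pmaip1* (NOXA, which binds MCL1) was lower by -1.62 ± 0.29 (adjusted p = 0.00108). Its endothelial-like values of 77.9, 36.9, 19.6, 58.7 and 77.2 CPM spread widely, and the MP value fell within the SyS-like range of 14.0 to 24.1 CPM. *Bbc3* was higher by 0.59 ± 0.19 (adjusted p = 0.0255), a call lost without BP replicate 2 (adjusted p = 0.0761). *Bcl2l11* had a log2 value of 0.37 ± 0.18 (adjusted p = 0.118), and without PD+MP 0.57 (adjusted p = 0.0041). The counts were 1 of 10 members higher and 3 lower, beside 31.3% and 18.7% of genes, with a members' median of -0.28 (3 higher and 3 lower without TMM scaling). Without PD+MP, which had 81 endothelial-like cells, 7 members were called. The share of all genes called in that fit is not given, so this count has no background beside it. T/NK markers summed to 0 to 3.33 CPM in endothelial-like cells, 4 of the 10 at 0, against 2584 to 4100 CPM in T/NK-like cells. Outside that marker list, the T cell genes *Gzmk* and *Lck* were at 36.4 and 15.6 CPM in endothelial-like cells and at 59.8 and 109.2 CPM in T/NK-like cells. The part of T/NK RNA in the endothelial-like *Bcl2* level was not tested.

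Against macrophage-like cells the anti-apoptotic genes parted ways. *Bcl2l1* was lower in SyS-like cells by -2.58 ± 0.15 (adjusted p = 1.37e-07), with 159.4, 125.0, 130.8, 162.2 and 99.2 CPM in macrophage-like cells. *Mcl1* was lower by -2.52 ± 0.15 (adjusted p = 1.85e-07), at 571.7 to 714.9 CPM in macrophage-like cells. Neither range overlapped the SyS-like one. *Bcl2l2* was higher by 0.91 ± 0.23 (adjusted p = 0.00523) and *Bbc3* by 1.22 ± 0.16 (adjusted p = 5.77e-05). *Pmaip1* was lower by -1.53 ± 0.18 (adjusted p = 2.95e-05). The effectors *Bax* (-0.62 ± 0.14, adjusted p = 0.00268) and *Bak1* (-0.69 ± 0.20, adjusted p = 0.0126) were called lower, but without TMM scaling they were at -0.05 and -0.12 (adjusted p = 0.766 and 0.616). Their CPM ranges overlapped, with *Bax* at 230.2 to 317.8 CPM in SyS-like and 199.0 to 307.6 CPM in macrophage-like cells. In UMIs per cell both effectors were higher in SyS-like cells in 5 of 5 tumors, at 1.845 to 3.17 times (*Bax*) and 1.44 to 2.95 times (*Bak1*). By that measure *Pmaip1* was higher in 3 of 5 tumors, and *Bcl2l1* and *Mcl1* stayed lower in 5 of 5. *Bcl2* was at 0.07 ± 0.16 (95% interval -0.28 to 0.42, adjusted p = 0.721), yet at 0.64 (adjusted p = 0.00313) without TMM scaling, and its CPM ranges did not overlap (39.6 to 54.8 in SyS-like, 21.8 to 37.0 in macrophage-like cells). Whether *Bcl2* was called against macrophage-like cells therefore rests on the scaling. The counts were 2 members higher and 5 lower, beside 37.8% and 22.6% of genes, with a median of -0.38, and without TMM scaling 4 were higher and 3 lower.

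**Figure D3:**
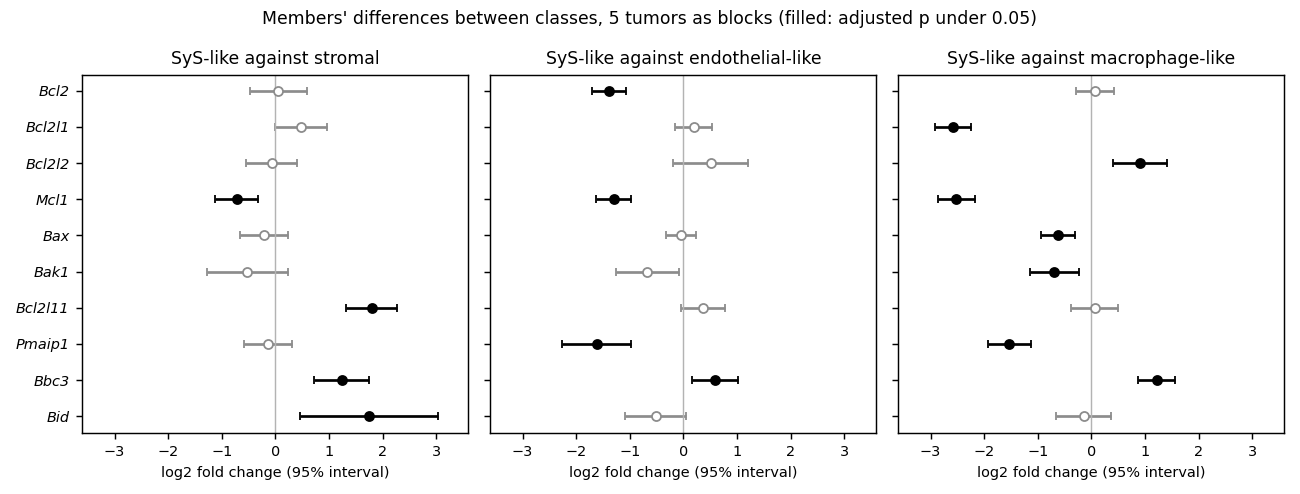
Log2 fold change of each member (x axis, point with its 95% interval) in SyS-like against stromal, endothelial-like and macrophage-like cells, fitted over 5 tumors with the tumor as a block. Filled points passed an adjusted p of 0.05, and *Bcl2* is filled against endothelial-like cells alone, at -1.39.

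Counted over the members alone, SyS-like cells carried more BH3-only RNA for their anti-apoptotic RNA than stromal, endothelial-like or macrophage-like cells. The UMIs of *Bcl2l11*, *Pmaip1*, *Bbc3* and *Bid* together came to 0.920 ± 0.199 per anti-apoptotic UMI in SyS-like cells (SD, n = 5). The ratio was 0.403 ± 0.064 in endothelial-like, 0.246 ± 0.027 in stromal and 0.201 ± 0.020 in macrophage-like cells. The lowest SyS-like tumor (PD+MP, 0.737) lay above the highest value of these classes (0.469). This ratio was set up after the members' values were known and is a description. *Bcl2l11* and *Mcl1* were the most abundant gene on each side in SyS-like cells. Intron reads, if counted, would add more to the 36.5 kb of *Bcl2l11* than to the 4.39 kb of *Mcl1*, and their part in the ratio was not tested. The sums leave out the anti-apoptotic *Bcl2a1b*, abundant in macrophage-like cells, and the BH3-only gene *Bad*, whose levels are given below.

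Within SyS-like cells, *Pmaip1* and *Bbc3* differed with proliferation, in opposite directions. Cells with at least 5 UMIs of a cell cycle list after thinning to 3000 UMIs were called cycling (11.5% of SyS-like cells in BP replicate 1 to 29.7% in PD+MP) and those with at most 1 non-cycling (36.1% to 69.7%). *Pmaip1* was at 25.8, 20.7, 28.8, 28.7 and 28.9 CPM in cycling and 17.2, 11.9, 17.0, 12.4 and 19.6 CPM in non-cycling cells. Both sets were apart, and the log2 fold change was 0.74 ± 0.09 (adjusted p = 0.0001). *Bbc3* moved the other way in 5 of 5 tumors, by -0.52 ± 0.08 (adjusted p = 0.000505). These 2 BH3-only genes, both known p53 targets, thus had opposite signs, and their calls remained when any 1 tumor was left out. *Bcl2* was at 60.4, 44.7, 43.8, 51.6 and 43.2 CPM in cycling and 52.6, 38.3, 42.1, 40.4 and 33.4 CPM in non-cycling cells. It was higher in 5 of 5 tumors, by 0.20 ± 0.07 on the log2 scale (adjusted p = 0.0308), and without BP replicate 2 the adjusted p was 0.0563. *Bak1* was higher by 0.22 ± 0.08 (adjusted p = 0.0488), *Bcl2l2* lower by -0.22 ± 0.07 (adjusted p = 0.0346) and *Mcl1* lower by -0.19 ± 0.05 (adjusted p = 0.0145). Each of these 3 calls was lost in at least 3 of the 5 fits without a tumor. In all, 3 members were called higher and 3 lower, beside 18.4% and 23.4% of 15642 genes, and the members' median was 0.05. Without TMM scaling 5 were higher and 1 lower. Without BP replicate 2 the count was 2, and without PD+MP 3.

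**Figure D4:**
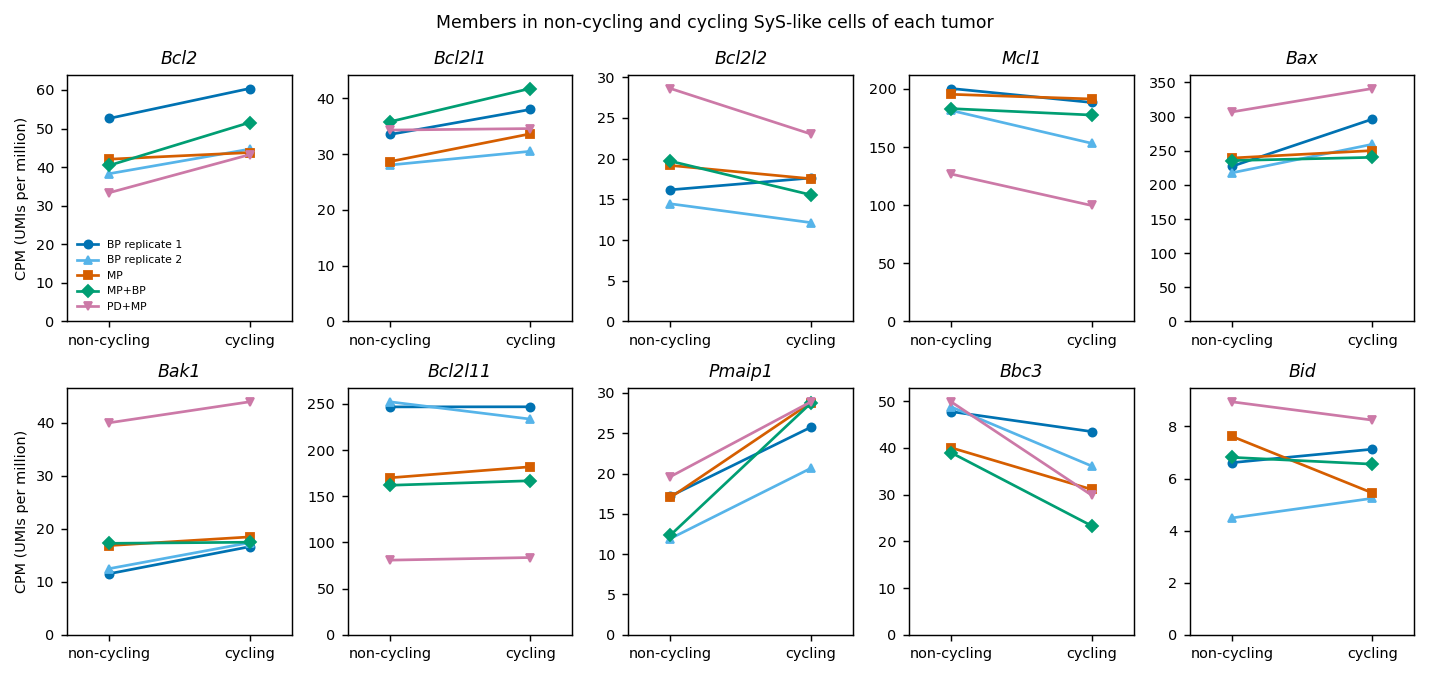
CPM (y axis, from 0) of each member in non-cycling and cycling SyS-like cells (x axis), with 1 line per tumor. *Pmaip1* rises in all 5 lines and *Bbc3* falls in all 5, while *Bcl2l11* lines are nearly flat or cross.

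Between histology labels no member passed the test, on sums that left out cluster 9 and the other unnamed cells with SyS markers. The 3 tumors labelled BP or MP+BP were compared with MP and PD+MP on their SyS-like sums, and edgeR called 0 of 20655 genes (0% higher and 0% lower of the 18065 outside the features), while 1185 higher and 743 lower had an unadjusted p under 0.05 and DESeq2 called 426 and 97. *Bcl2* averaged 46.6 ± 7.3 CPM with BP and 41.7 ± 3.0 CPM without (SD, n = 3 and 2), a log2 fold change of 0.12 ± 0.20 (adjusted p = 0.859). The ranges overlapped. *Bcl2l11* averaged 217.5 ± 47.8 CPM with BP and 128.1 ± 63.3 CPM without, a log2 value of 0.74 ± 0.38 (adjusted p = 0.575). *Bak1* averaged 14.7 ± 2.4 and 29.8 ± 16.5 CPM, a log2 value of -1.07 ± 0.38 (adjusted p = 0.525). Without MP, which leaves PD+MP alone on 1 side with its spread taken from the other tumors, *Bak1* reached -1.57 (adjusted p = 0.0465). The 2 groups did not overlap for 5 of 10 members (*Bcl2l2*, *Bax*, *Bak1*, *Pmaip1* and *Bid*, all lower with BP), beside 26.1% of genes in either direction. On counts simulated for this comparison over 20655 genes, 1% of 100 genes changed 2-fold and 36% of 100 changed 4-fold were recovered, so a 2-fold difference would usually have been missed.

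PD+MP set the range of most members, as it did of most genes. It lay above the other 4 tumors for *Bcl2l2*, *Bax*, *Bak1*, *Pmaip1* and *Bid* and below them for *Bcl2*, *Mcl1* and *Bcl2l11*, that is 5 and 3 of 10 members beside 28.7% and 35.4% of genes. *Bak1* was at 41.5 CPM against 12.7 to 18.1 CPM elsewhere, and *Bcl2l11* at 83.4 CPM against 162.5 to 249.3 CPM. In non-cycling cells alone *Bak1* was at 40.0 CPM in PD+MP and 11.5 to 17.3 CPM in the other tumors. *Bcl2l11* was at 80.8 CPM and 161.9 to 252.3 CPM there. The part of proliferation in these gaps was not tested. PD+MP is a single tumor, and its label, its animal and its library cannot be told apart.

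The SyS-like clusters of a tumor differed among themselves too, as a description without a test. Over clusters with at least 50 cells, *Bcl2* ranged from 31.4 to 78.8 CPM (BP replicate 1), from 15.3 CPM, on 7 UMIs, to 46.5 CPM (BP replicate 2), from 31.9 to 55.4 CPM (MP), from 31.5 to 76.8 CPM (MP+BP) and from 25.2 to 62.2 CPM (PD+MP). The highest-to-lowest ratio was 1.74 to 3.03. Low values lay in cluster 5, led by *Sst*, *Bmp5* and *Col1a1* (BP replicate 1 and MP+BP), cluster 21, led by *Mgp*, cluster 2, led by *Pcp4*, in MP and cluster 12, led by *Gap43*, in PD+MP. *Bcl2l11* was lowest in cluster 5 or 21 in 4 of 5 tumors, with ratios of 1.69 to 5.33. The ratio for *Mcl1* was 1.28 to 2.01, and in PD+MP it was above that of *Bcl2l11* (2.01 and 1.69). The PD+MP cluster with the highest *Bcl2* had a median of 2995 UMIs per cell, and the part of depth was not tested. Unnamed clusters with SyS markers are left out of these ranges. In cluster 9 *Bcl2l11* was at 523.1 CPM in BP replicate 1, where the highest SyS-like cluster had 333.4 CPM. In MP+BP it was at 84.7 CPM there, where the lowest SyS-like cluster had 100.4 CPM.

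**Figure D5:**
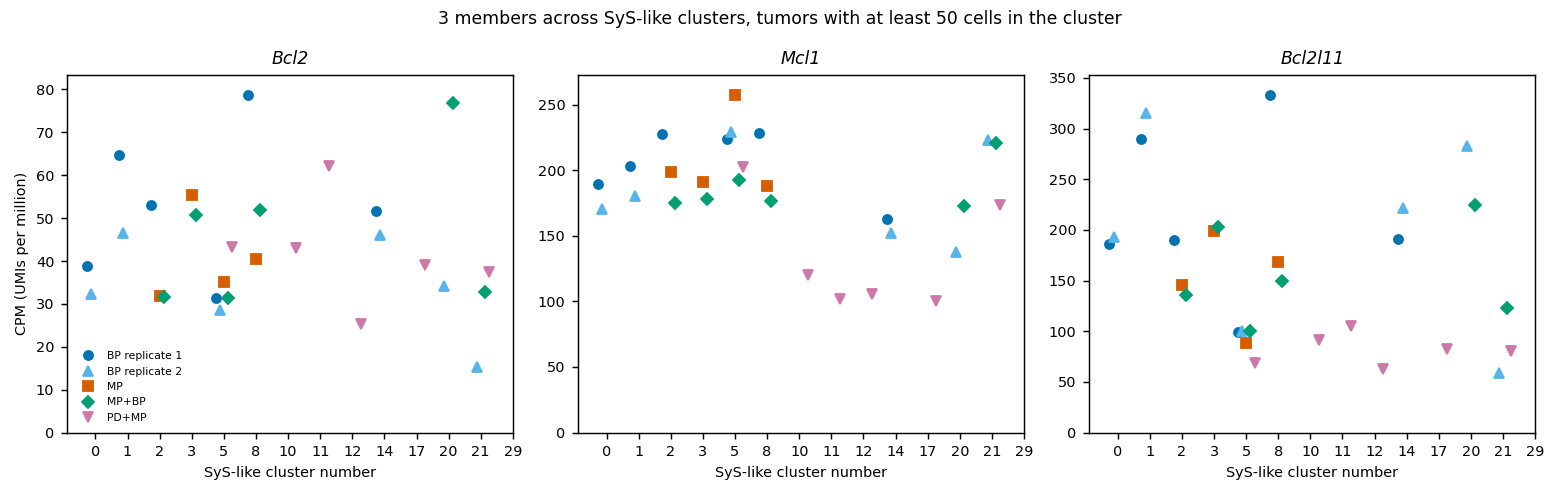
CPM (y axis, from 0) of *Bcl2*, *Mcl1* and *Bcl2l11* in each SyS-like cluster (x axis, cluster number), 1 symbol per tumor with at least 50 cells there. *Bcl2* spans 15.3 to 78.8 CPM, and *Bcl2l11* of PD+MP stays at 62.3 to 105 CPM.

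Of a list of 15 other BCL2 family genes, 13 or 14 passed the count filter in each comparison. Counts here and in the lists that follow stand beside the shares of genes outside the clustering features. Called higher and lower were 17.3% and 9.27% against stromal cells and 31.3% and 18.7% against endothelial-like cells. Against macrophage-like cells the shares were 37.8% and 22.6%, and in cycling cells 18.4% and 23.4%. Against stromal cells 2 of 13 tested were higher and 2 lower (median 0.08), against endothelial-like cells 4 and 4 (median -0.36), against macrophage-like cells 6 and 4 of 14 (median 0.34) and in cycling cells 3 and 4 (median -0.13). *Bnip3l* (151.0 CPM), a mitophagy receptor, and *Bad* (87.2 CPM), a BH3-only gene, had the highest SyS-like levels of the list, and *Bad* was higher than in stromal cells by 0.59 (adjusted p = 0.018). *Bok*, a BAX-like effector, was lower than in endothelial-like cells by -3.07 (adjusted p = 1.7e-06) and higher than in macrophage-like cells by 3.01 (adjusted p = 1e-05), at 10.5, 74.9 and 0.888 CPM in the 3 classes. It was higher in cycling cells by 1.73 (adjusted p = 7.3e-07), as was *Bik* by 1.23 (adjusted p = 3.7e-05). The anti-apoptotic *Bcl2a1b*, with 777.0 CPM in macrophage-like and 0.713 CPM in SyS-like cells, was lower by -10.68 (adjusted p = 2.8e-09). *Bcl2a1a* and *Bcl2a1d*, near-identical copies whose reads can be split between them, were lower by -10.86 and -10.50. Their SyS-like levels were 0.159 and 0.415 CPM, near 0.

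Of 18 caspase and inhibitor-of-apoptosis genes, 2 were higher and 2 lower than in stromal cells, 4 and 8 against endothelial-like and 2 and 10 against macrophage-like cells, with medians of -0.15, -0.45 and -0.65. *Birc3* (cIAP2) was lower in all 3 comparisons, by -1.83, -1.73 and -3.41. *Aifm1*, a mitochondrial flavoprotein, was higher in all 3, by 1.47, 1.35 and 1.47. *Apaf1*, the apoptosome scaffold, was lower than in endothelial-like cells by -1.89 (edgeR adjusted p = 3.4e-06). In cycling cells 9 of 18 were higher and 3 lower (median 0.19), led by *Birc5* (survivin, a mitotic gene) at 5.18. *Cycs* (278.7 CPM), which encodes cytochrome c, and *Vdac2* (219.9 CPM) were the highest of the list in SyS-like cells.

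Of 21 p53 pathway genes, 1 was higher than in stromal cells, 8 were higher and 4 lower than in endothelial-like cells, and 12 higher and 3 lower than in macrophage-like cells (medians 0.07, 0.22 and 0.64). *Perp* had 744 UMIs in SyS-like and 0 in stromal cells, at least 5.14-fold higher against a floor of 3 UMIs over the stromal sums, and the list median was the same with *Perp* at that bound. Against endothelial-like cells its pooled ratio was 19.4 (95% counting interval 5.36 to 160.7, from 2 endothelial-like UMIs). *Plk2* was lower than in endothelial-like cells by -3.69 (adjusted p = 4.8e-06) and *Phlda3* higher than in macrophage-like cells by 3.64 (adjusted p = 7e-07). *Btg2* (575.1 CPM) and *Cdkn1a* (187.2 CPM), which encodes the cell cycle inhibitor p21, had the highest SyS-like levels. In cycling cells 6 were higher and 4 lower (median 0.13), with *Cdkn1a* at 0.74 (adjusted p = 7.1e-05), *Gtse1* at 4.51 and *Btg2* at -0.50.

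The genes whose levels followed *Bcl2* most closely were *Lck* (Pearson r = 0.88), *Gimap8* (0.86), *Pcmtd1* (0.86), *Gzmk* (0.86) and *Ddx10* (0.85), of 9793 genes with a mean of at least 10 CPM. The r is across 31 sums of a tumor and class with at least 50 cells, which share libraries and classes, and is a description. *Lck*, a T cell kinase, averaged 109.2 CPM in T/NK-like, 15.6 CPM in endothelial-like and 7.41 CPM in SyS-like cells over these sums. *Pcmtd1* ran from 50.3 CPM in stromal to 146.2 CPM in T/NK-like cells.

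The positions of 7 other members on GRCm38 were as follows. *Mcl1* is at chr3:95658788-95663176, *Bcl2l1* at chr2:152780668-152831728, *Bcl2l2* at chr14:54883377-54888234, *Bax* at chr7:45461697-45466898 and *Bak1* at chr17:27019810-27029009. *Bbc3* is at chr7:16308393-16318205 and *Bid* at chr6:120891930-120916853. *Bcl2l2* overlaps *Gm20521* on the same strand, *Bax* overlaps *Gm45808*, *Bid* overlaps *Gm44260* and *Bcl2* overlaps *Gm37053*, so reads in the shared stretch could be assigned to neither or either gene and these levels are uncertain. *Bid* overlaps *Bcl2l13* on the opposite strand, which 3′ chemistry keeps apart by strand. Whether reads in introns were counted was not stated, and a long gene such as *Bcl2* would gain more from them than the 4.39 kb of *Mcl1*.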

How the data were processed

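UMI counts from 5 tumors were used as deposited. The authors made them with Cell Ranger 7.2.0 (per the file headers) on mm10 (per the submitters' processing notes) from 10x 3′ v3.1 libraries, as raw counts in filtered matrices with 1 tumor each. The annotation release and the intron setting are not given in the sources used here. Of 32286 feature identifiers, 32235 were in GENCODE M21 (GRCm38), which supplied gene coordinates, and RefSeq (GRCm38.p6) supplied promoters.

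Cells with at least 750 genes and at most 25% mitochondrial UMIs, the study's limits, were kept. Scrublet scores removed 2957 doublets, as the top share expected per tumor (0.8% per 1000 cells), because its automatic threshold marked 0 cells in MP+BP and PD+MP. The 3000 genes of highest Pearson residual variance gave 30 principal components, a 20-neighbor graph and Leiden clusters at resolution 1 (scanpy 1.11.5, leidenalg 0.10.2). Members, gene lists, mitochondrial, ribosomal, hemoglobin and sex-linked genes were kept out of these 3000, and cell type markers were not. A cluster took the class with most markers (at least 3), a marker counting at 3 times the 25th percentile of clusters, 25% of the highest cluster and 5% of cells. Clusters led by markers of another class, or under 33.3% of their tumors' median UMI count without own leading markers, stayed unnamed. Names are rebuilt here, so differences from the study may come from them.

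Counts were summed per tumor and class (at least 20 cells), scaled by TMM, filtered with filterByExpr and tested with edgeR 4.0.16 (R 4.3.3) quasi-likelihood, Benjamini-Hochberg adjusted over all genes tested, at 0.05. The tumor was a block in class and cycling comparisons, since both sums come from 1 animal's tumor. The labels do not say whether the BP tumors, whose label numbers match, came from separate animals, so p-values measure the spread between these samples. Intervals on counts cover counting error only. Tests were checked on simulated counts with 200 changed genes. Against stromal, endothelial-like and macrophage-like cells, 13%, 36% and 43% of 2-fold changes were recovered, and 67%, 85% and 79% of 4-fold changes. In cycling cells 88% and 94% were recovered. A member not called in a class comparison may therefore still differ. Alternatives were DESeq2 1.42.0, no TMM, other filters, thinned sums (to the other class's total), doublets kept, 1500 genes per cell, resolution 0.5, pericyte-like cells alone, no block, a cycling limit of 10 UMIs, each tumor left out and, chosen after seeing the data, the unnamed cells with SyS markers counted as SyS-like.

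The members and lists were chosen with earlier results of these data known. Genes named are all members, of each further list up to 4 called genes with the largest change per comparison and the 2 of highest SyS-like CPM, and the 5 genes most like *Bcl2*. Of those, the text gives values for a part. Some list genes are not reported here.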

Additional observations from a re-analysis of the deposited data

Results flagged for a closer look

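Dixon's criterion was applied to 44 sets of 5 tumors (10 members and the *Bcl2* share in 4 classes). In 4 sets a tumor lay far from the others, and all 4 were PD+MP. Chance would mark about 1 in 20 independent sets, but these sets share the same 5 tumors. PD+MP also lay outside the range of the other tumors for most genes in SyS-like cells, by the shares given above. The share of all genes marked by this criterion is not given, so these flags cannot be read as particular to the family. In SyS-like cells PD+MP had 111.2 CPM of *Mcl1* (others 173.3 to 197.1), 317.8 CPM of *Bax* (others 230.2 to 243.0) and 41.5 CPM of *Bak1* (others 12.7 to 18.1). In endothelial-like cells, of which PD+MP had 81, *Bbc3* was at 13.7 CPM (others 23.8 to 25.6). PD+MP is the single tumor of its label, so a difference of label and of animal cannot be told apart.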

How the results depend on the processing

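Counts of members called moved by over 1.5 times in 2 of 46 fits that kept all tumors. Shares of all genes called are given for the main fits only. With at least 10 counts in every sum, 7 members remained for the stromal comparison and 2 were called, since *Bid*, *Bbc3* and *Pmaip1* fell to the filter and were not tested. Without the tumor block 1 was called in cycling cells, where *Bcl2* was at 0.20 (adjusted p = 0.6). Tumors are paired by origin in class and cycling comparisons, and the block (replicate block) is part of the main fit there. No paired analysis was possible because each tumor has 1 label in the comparison between labels.

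Leaving out 1 tumor at a time, the members called ranged from 2 to 5 against stromal, 3 to 7 against endothelial-like cells, 2 to 6 in cycling cells and 0 to 1 between labels. *Bcl2* then ranged from -0.14 to 0.25 against stromal cells, from -0.025 to 0.18 against macrophage-like cells, from 0.19 to 0.25 in cycling cells and from -0.0036 to 0.17 between labels. *Bcl2l11* ranged from -0.071 to 0.25 against macrophage-like cells and from -0.043 to 0.021 in cycling cells, *Bax* from -0.10 to 0.043 against endothelial-like cells and *Bid* from -0.17 to 0.0024 in cycling cells. Between labels *Bcl2l1* ranged from -0.13 to 0.096, *Mcl1* from -0.12 to 0.66 and *Bbc3* from -0.0032 to 0.20.

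Without TMM scaling, *Bcl2* reached 0.64 against macrophage-like cells, and log2 values changed sign for *Bid* (0.43) there, *Bcl2l2* (0.19), *Bax* (0.033) and *Pmaip1* (0.13) against stromal cells, *Bax* (0.17) against endothelial-like cells, *Bcl2l11* (0.015) in cycling cells and *Bcl2l1* (0.041) between labels, none of them called in either fit. With at least 10 counts, the sign changed for *Bax* (0.13, endothelial-like), *Bid* (0.091, macrophage-like), *Bcl2l11* (0.0080, cycling) and *Bcl2l1* (0.035, labels). Without a count filter it did so for *Bcl2l2* (0.0016, stromal) and *Bax* (0.028, endothelial-like). Doublets kept gave *Bax* 0.0038 (endothelial-like) and *Bcl2l11* -0.0080 (macrophage-like), thinned sums *Bcl2* -0.039 (stromal), pericyte-like cells alone *Bcl2l2* 0.055, the 10-UMI cycling limit *Bcl2l11* 0.030, and 1500 genes per cell *Bcl2l1* 0.020 (labels). The cause was not tested. Over all fits with every tumor, 393 of 453 member fold changes kept their sign and side of the threshold, and 210 of 250 with a tumor left out. Few stromal and T/NK-like cells, and *Bid* UMIs in single digits there, limit what can be resolved.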
